A study of Homo sapiens with 16 samples.

Results

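The 7 human genes of the FOS and JUN family, FOS, FOSB, FOSL1, FOSL2, JUN, JUNB and JUND, were followed through 16 polyadenylated RNA libraries of SH-SY5Y neuroblastoma cells. They were chosen by gene symbol among the 69222 genes of the count table, and all 7 were among the 18081 genes with enough counts to be tested. Every group held 2 libraries. In 6 groups the cells were differentiated on an electrically conductive film, either stimulated or unstimulated. P(rGO) carries reduced graphene oxide, ITO is indium tin oxide, and PEDOT:PSS pairs a conducting polymer with a polymer acid. A further group was differentiated on culture plates and another was left untreated on culture plates. Differentiation lowered serum to 5%, 2.5% and 1% on days 2, 3 and 5, added 10 µM retinoic acid from day 3 to day 6, and then gave the neurotrophin BDNF at 50 ng/mL for 4 days. Stimulation (ES) was a square wave of 0.1 V peak to peak at 1 Hz, given 8 h per day during those last 4 days. The protocols describe a poly-L-lysine and laminin coat for the films and name none for the plates, so film and coat cannot be told apart here. The time between the end of the last stimulation and lysis was not given in the sources used here. SH-SY5Y is an established line, and nothing in the labels says that the 2 libraries of a group were separate cultures. The p-values therefore weigh group differences against the spread between libraries of a group, pooled over the 8 groups and drawn towards that of other genes. This spread may be only technical.

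FOS and JUN proteins are basic leucine zipper transcription factors that pair to form AP-1, a dimer that binds a short palindromic DNA site. JUN proteins can pair with each other or with FOS proteins, whereas FOS proteins need a JUN partner. In neurons and neuroblastoma cells FOS, FOSB and JUNB are immediate early genes, switched on within minutes by calcium entry, depolarisation, growth factors and neurotrophins through serum response factor and CREB. JUND is present at rest, JUN is known for its induction by JNK kinases after stress or axon injury, and FOSL1 (Fra-1) and FOSL2 (Fra-2) tend to follow later.

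The genes lie (GENCODE v29, GRCh38) at chr14:75278774-75282230 (FOS), chr19:45467995-45475179 (FOSB), chr11:65892049-65900573 (FOSL1), chr2:28392448-28417312 (FOSL2), chr1:58780788-58784327 (JUN), chr19:12791496-12793315 (JUNB) and chr19:18279760-18281622 (JUND), with FOSL1, JUN and JUND on the minus strand.

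Promoter sequence from 250 bases before to 50 after the annotated start was available from RefSeq (GRCh38.p14) for 6 of the 7 genes, all except FOSL1. The promoters of FOS, FOSL2 and JUNB are shown because these genes differed most clearly among the groups, and that of JUN because it ran apart from them. Capitals mark matches to TGACGT, the core bound by CREB and ATF factors, to TGANTCA, the AP-1 site, to TGACATCA, the JUN and ATF site known from the JUN gene, and to TATAAA, all searched on both strands.
FOS (chr14:75278578-75278877, plus strand): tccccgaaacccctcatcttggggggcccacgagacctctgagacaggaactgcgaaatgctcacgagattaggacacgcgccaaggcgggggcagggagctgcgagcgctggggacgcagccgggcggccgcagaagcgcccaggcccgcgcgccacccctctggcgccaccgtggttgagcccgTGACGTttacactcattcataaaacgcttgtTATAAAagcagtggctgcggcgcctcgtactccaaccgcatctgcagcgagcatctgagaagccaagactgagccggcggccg
FOSL2 (chr2:28392608-28392907, plus strand): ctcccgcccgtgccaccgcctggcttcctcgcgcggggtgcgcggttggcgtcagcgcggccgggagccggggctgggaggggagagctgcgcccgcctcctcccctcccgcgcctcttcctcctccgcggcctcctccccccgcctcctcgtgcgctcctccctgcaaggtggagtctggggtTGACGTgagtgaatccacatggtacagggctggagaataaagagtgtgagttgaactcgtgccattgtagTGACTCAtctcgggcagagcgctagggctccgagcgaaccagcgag
JUNB (chr19:12791236-12791535, plus strand): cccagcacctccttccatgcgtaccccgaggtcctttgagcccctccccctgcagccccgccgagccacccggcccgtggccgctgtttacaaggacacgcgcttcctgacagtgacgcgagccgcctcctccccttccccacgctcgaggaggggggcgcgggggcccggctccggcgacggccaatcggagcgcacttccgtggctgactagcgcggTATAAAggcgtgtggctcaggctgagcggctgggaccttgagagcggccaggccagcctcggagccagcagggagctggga
JUN (chr1:58783998-58784297, minus strand): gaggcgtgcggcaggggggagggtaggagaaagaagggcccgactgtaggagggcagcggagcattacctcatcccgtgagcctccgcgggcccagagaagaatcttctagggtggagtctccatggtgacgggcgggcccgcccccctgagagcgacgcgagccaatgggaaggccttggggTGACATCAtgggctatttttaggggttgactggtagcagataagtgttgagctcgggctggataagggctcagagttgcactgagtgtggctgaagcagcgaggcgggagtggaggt
Counted from the start, with bases before it negative, TGACGT lay at -64 to -59 in FOS, -60 to -55 in FOSB and -66 to -61 in FOSL2. JUND held the full palindrome TGACGTCA at -200 to -193 and a separate TGACGT, read on the opposite strand, at -87 to -82. The JUN window held TGACATCA at -67 to -60, and the FOSL2 window held the AP-1 site TGACTCA at 5 to 11. TATAAA was found at -33 to -28 in FOS, -30 to -25 in FOSB and -31 to -26 in JUNB, and JUNB held no match to the other motifs. Over all 35116 promoters of the same length, 7.98% held TGACGT, 1.85% TGACGTCA, 2.61% TGACATCA, 7.71% TGANTCA and 11.5% TATAAA. No CArG box, the site of serum response factor, was matched in the 6 windows, against 1.29% of all promoters. The windows start 250 bases before the annotated start, so a CArG box farther out was not searched for. A TGACGT inside TGACGTCA counts for both motifs, and a match is a description of the letters only.

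The libraries held 15600410 to 20851000 reads assigned to genes. Levels are given as CPM, reads of a gene per 1000000 assigned reads after scaling of library sizes. Ribosomal protein genes took 2.87% to 3.66% of these reads in the 12 film libraries, 4.17% and 5.62% on differentiated plates and 6.29% and 9.06% in untreated cells. Replicate 1 of stimulated P(rGO) had the largest share of reads assigned to no gene, 10.0%, against 5.58% to 8.95% in the other 15 libraries. Replicate 1 of the differentiated plates had the largest share of mitochondrial reads, 8.58%, against 5.42% in replicate 2. That share was 4.58% to 7.33% on films and 7.51% and 8.09% in untreated cells, and its part in the results was not tested. Summed markers of adrenergic neuroblastoma (14 genes) were at 6681 to 8127 CPM on films, 8011 and 8427 CPM on plates and 8990 and 9015 CPM in untreated cells. Summed markers of the mesenchymal neuroblastoma state (16 genes) were at 282.5 to 429 CPM on films and 305 and 333 CPM on plates, against 1087 and 1735 CPM in untreated cells. Summed fibroblast markers (12 genes) were at 200.4 to 349 CPM on films and 231 and 260.1 CPM on plates, against 473 and 708 CPM in untreated cells. Schwann markers (6 genes) summed to at most 12.8 CPM and immune markers (6 genes) to at most 3.92 CPM in any library. Since these are bulk libraries, fewer cells of a kind and less RNA per cell cannot be told apart.

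Per kilobase of exon, JUND was the most abundant transcript of the family in every library. It made up 66.3% to 73.2% of the summed level on films, 71.9% and 72.2% on plates and 70.8% and 78.7% in untreated cells. JUNB made up 15.6% to 26.1% on films, against 10.5% and 16.4% on plates and 8.47% and 14.2% in untreated cells. JUN made up 4.82% to 10.1% on films, against 10.2% and 16.4% on plates and 11.0% and 11.1% in untreated cells. The JUN shares on films all lay below those of the other 4 libraries, while the JUNB shares overlapped. The 4 FOS genes together made up 2.33% to 3.67% of the summed level on films, 1.19% and 1.21% on plates and 1.84% and 3.91% in untreated cells. Exon length counts every annotated isoform, and per kilobase of coding sequence the JUND share was 61.0% to 67.2% on films, 60.3% and 64.4% on plates and 58.7% and 68.8% in untreated cells. The share of the FOS genes depends more on the length used. Per kilobase of coding sequence FOSL2 alone made up 1.32% to 4.33% on films, 1.16% and 2.09% on plates and 2.91% and 9.48% in untreated cells.

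**Figure D1:**
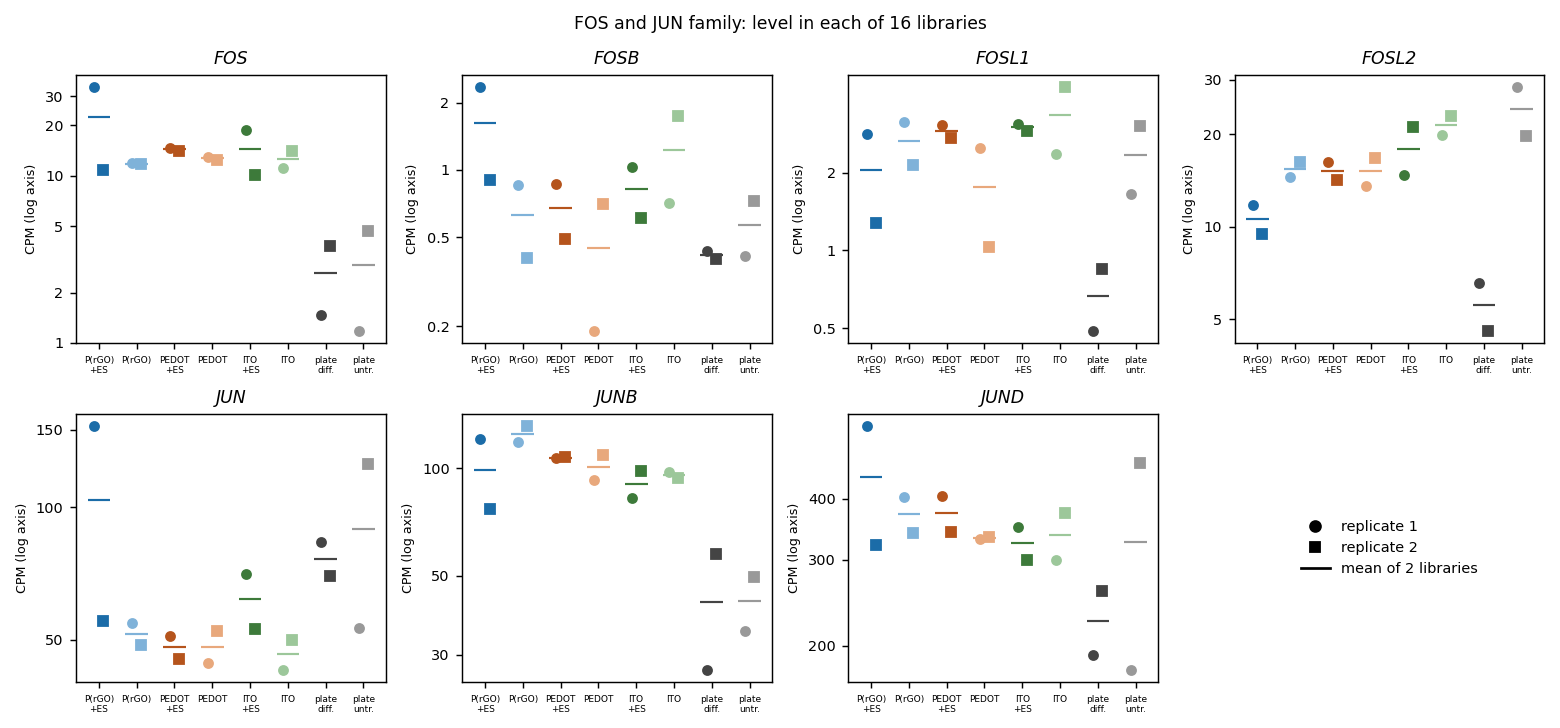
Level of each member in each library, in CPM on a log axis with its own range per gene. Circles are replicate 1, squares replicate 2 and lines the mean of the 2 libraries of a group, with film groups left of the differentiated plates (plate diff.) and untreated cells (plate untr.) and ES marking stimulation. All 12 film libraries lie above both plate libraries for FOS, FOSL1, FOSL2, JUNB and JUND.

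FOS, the founding immediate early gene of the family, was low on plates and higher on every film. FOS had 34.1 and 10.9 CPM on stimulated P(rGO), 11.9 and 11.8 CPM on unstimulated P(rGO), 14.7 and 14.1 CPM on stimulated PEDOT:PSS, 12.96 and 12.5 CPM on unstimulated PEDOT:PSS, 18.8 and 10.1 CPM on stimulated ITO and 11.2 and 14.04 CPM on unstimulated ITO. It had 1.47 and 3.80 CPM on differentiated plates, and 1.18 and 4.66 CPM in untreated cells. The lowest film library was thus above all 4 plate libraries, and replicate 1 of stimulated P(rGO) stood above the other 11 film libraries. Against differentiated plates the mean of the 6 film groups was higher by 2.44 ± 0.51 on the log2 scale (± SE, edgeR quasi-likelihood test with Benjamini-Hochberg adjusted p = 0.011), a 5.42-fold difference, with all 12 film libraries above both plate libraries. Film by film, FOS passed the threshold of 0.05 on stimulated P(rGO) (log2 fold change 3.08 ± 0.59, adjusted p = 0.0222), stimulated ITO (2.44 ± 0.59, adjusted p = 0.0455) and unstimulated ITO (2.25 ± 0.59, adjusted p = 0.0469). It missed the threshold on unstimulated P(rGO) (2.16 ± 0.59, edgeR adjusted p = 0.0524), stimulated PEDOT:PSS (2.44 ± 0.59, edgeR adjusted p = 0.0641) and unstimulated PEDOT:PSS (2.26 ± 0.59, edgeR adjusted p = 0.0768). The 6 estimates lay within 0.93 of each other on the log2 scale, and no film was called different from another for FOS in the same model. DESeq2 called FOS also on unstimulated P(rGO) (DESeq2 adjusted p = 0.0361), stimulated PEDOT:PSS (0.024) and unstimulated PEDOT:PSS (0.0451). Without the untreated libraries edgeR called it on the same groups (edgeR adjusted p = 0.03, 0.0323 and 0.0404). Fits of only the groups compared called it there too, but not on stimulated P(rGO) (edgeR adjusted p = 0.0655) or stimulated ITO (edgeR adjusted p = 0.0622). Leaving out each of the 16 libraries in turn, the FOS call was kept in 14 cases on stimulated P(rGO), 5 on unstimulated ITO and 4 on stimulated ITO, and it was farthest from the threshold without replicate 1 of the plates (edgeR adjusted p = 0.352 on stimulated P(rGO), 0.398 on unstimulated ITO and 0.439 on stimulated ITO).

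FOSB, a second activity-induced FOS gene, was scarce. FOSB had 2.35 and 0.904 CPM on stimulated P(rGO), 0.859 and 0.405 CPM on unstimulated P(rGO), 0.863 and 0.490 CPM on stimulated PEDOT:PSS, 0.192 and 0.703 CPM on unstimulated PEDOT:PSS, 1.03 and 0.611 CPM on stimulated ITO and 0.711 and 1.75 CPM on unstimulated ITO. It had 0.434 and 0.400 CPM on differentiated plates, where each library held 8 reads of it, and 0.414 and 0.726 CPM in untreated cells. Film libraries lay on both sides of the plate libraries, and 10 of 12 were above both. The mean of the films against plates was 0.98 ± 0.57 on the log2 scale (edgeR adjusted p = 0.34), with a 95% interval from -0.25 to 2.21, and FOSB was called in no comparison. Without the low-count filter it was called on stimulated P(rGO) against plates (1.95, edgeR adjusted p = 0.0113). Over all genes that setting called 1211 there, beside 303 with the filter.

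FOSL1, which encodes Fra-1, was also low in level. FOSL1 had 2.82 and 1.28 CPM on stimulated P(rGO), 3.15 and 2.14 CPM on unstimulated P(rGO), 3.07 and 2.72 CPM on stimulated PEDOT:PSS, 2.49 and 1.03 CPM on unstimulated PEDOT:PSS, 3.10 and 2.91 CPM on stimulated ITO and 2.37 and 4.31 CPM on unstimulated ITO. It had 0.489 and 0.849 CPM on differentiated plates, from 9 and 17 reads, and 1.66 and 3.03 CPM in untreated cells. Both plate libraries lay below the other 14. Differentiated plates were lower than untreated cells by a log2 fold change of -1.79 ± 0.55 (edgeR adjusted p = 0.0255), and the mean of the films was higher than plates by 1.91 ± 0.46 (edgeR adjusted p = 0.0209). Of the single films, unstimulated ITO passed (2.30 ± 0.54, adjusted p = 0.0282), and the others ran from 1.36 to 2.15 with adjusted p of 0.0545 to 0.288. The ITO call was lost without replicate 1 of the plates (1.97, edgeR adjusted p = 0.287), replicate 2 of the plates (2.77, edgeR adjusted p = 0.0553) and replicate 2 of unstimulated ITO (1.81, edgeR adjusted p = 0.242). On no film did FOSL1 differ from untreated cells past the threshold, with log2 fold changes of -0.43 to 0.51. Against plates DESeq2 called FOSL1 also on unstimulated P(rGO) (DESeq2 adjusted p = 0.0124), stimulated PEDOT:PSS (0.0119) and stimulated ITO (0.00658). Without the untreated libraries edgeR called it on the same groups (edgeR adjusted p = 0.0222, 0.0292 and 0.0221). On unstimulated PEDOT:PSS against plates it was called under none of the alternatives.

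FOSL2, which encodes Fra-2, varied most clearly of the 7 genes against its replicate spread. FOSL2 had 11.8 and 9.46 CPM on stimulated P(rGO), 14.5 and 16.2 CPM on unstimulated P(rGO), 16.3 and 14.2 CPM on stimulated PEDOT:PSS, 13.5 and 16.8 CPM on unstimulated PEDOT:PSS, 14.7 and 21.1 CPM on stimulated ITO and 19.9 and 23.0 CPM on unstimulated ITO. It had 6.57 and 4.59 CPM on differentiated plates, and 28.5 and 19.8 CPM in untreated cells. The plate libraries were the lowest of all, and the film libraries lay between them and untreated cells, overlapping the lower untreated library only on ITO. Differentiated plates were lower than untreated cells by a log2 fold change of -2.11 ± 0.26 (edgeR adjusted p = 0.000135), and the mean of the films was higher than plates by 1.48 ± 0.21 (edgeR adjusted p = 0.000951). FOSL2 was called higher on unstimulated ITO (1.94 ± 0.26, adjusted p = 0.00113), stimulated ITO (1.68 ± 0.25, adjusted p = 0.00443), unstimulated P(rGO) (1.46 ± 0.26, adjusted p = 0.00594), unstimulated PEDOT:PSS (1.44 ± 0.26, adjusted p = 0.0114) and stimulated PEDOT:PSS (1.45 ± 0.26, adjusted p = 0.0136). On stimulated P(rGO), the lowest film group, the log2 fold change over plates was 0.93 ± 0.26 (edgeR adjusted p = 0.0872). With each of the 16 libraries left out in turn the call was kept in all 16 cases on both ITO groups, 15 on unstimulated P(rGO) and 12 on each PEDOT:PSS group, where it was lost without either plate library or either library of the film itself (edgeR adjusted p of at most 0.139 unstimulated and 0.174 stimulated).

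JUN, the stress-responsive JUN gene, took another course. JUN had 153 and 55.2 CPM on stimulated P(rGO), 54.6 and 48.6 CPM on unstimulated P(rGO), 51.0 and 45.3 CPM on stimulated PEDOT:PSS, 44.2 and 52.3 CPM on unstimulated PEDOT:PSS, 70.5 and 53.0 CPM on stimulated ITO and 42.7 and 50.0 CPM on unstimulated ITO. It had 83.2 and 69.7 CPM on differentiated plates, and 53.1 and 125 CPM in untreated cells. Of the 12 film libraries 10 were below both plate libraries, 1 lay between them and 1, replicate 1 of stimulated P(rGO), was the highest of all 16. In the edgeR fit over all 16 libraries with low-count genes filtered, JUN passed the threshold in no comparison. The mean of the films against plates was -0.41 ± 0.29 on the log2 scale (edgeR adjusted p = 0.436), with a 95% interval from -1.03 to 0.21. Without the filter JUN was called lower than on plates on unstimulated PEDOT:PSS (edgeR adjusted p = 0.0174), unstimulated ITO (edgeR adjusted p = 0.00356) and stimulated PEDOT:PSS (edgeR adjusted p = 0.0174) and for the mean of the films (edgeR adjusted p = 0.0399), and higher with stimulation on P(rGO) (1.00, edgeR adjusted p = 7.28e-05) and for mean stimulation (0.47, edgeR adjusted p = 0.00472). That setting also called 168 of all genes for stimulation on P(rGO) and 137 for mean stimulation, beside 0 with the filter. With the filter but without replicate 1 of stimulated P(rGO), JUN was at 0.10 for stimulation on P(rGO) and 0.17 for mean stimulation. In fits of only the groups compared JUN was called lower on unstimulated P(rGO) (edgeR adjusted p = 0.0486) and unstimulated ITO (edgeR adjusted p = 0.044).

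JUNB, an immediate early gene whose protein is a weaker activator than JUN and can oppose it, was higher on every film. JUNB had 121 and 76.9 CPM on stimulated P(rGO), 119 and 131 CPM on unstimulated P(rGO), 107 and 107 CPM on stimulated PEDOT:PSS, 92.5 and 109 CPM on unstimulated PEDOT:PSS, 82.7 and 98.4 CPM on stimulated ITO and 97.9 and 94.2 CPM on unstimulated ITO. It had 27.2 and 57.4 CPM on differentiated plates, and 35.1 and 49.7 CPM in untreated cells. All 12 film libraries lay above all 4 plate libraries, and the differentiated and untreated plates overlapped. The mean of the films was higher than plates by 1.28 ± 0.24 on the log2 scale (edgeR adjusted p = 0.00563). JUNB was called on unstimulated P(rGO) (1.56 ± 0.29, adjusted p = 0.00752), unstimulated ITO (1.18 ± 0.29, adjusted p = 0.0321), stimulated PEDOT:PSS (1.34 ± 0.29, adjusted p = 0.035), unstimulated PEDOT:PSS (1.25 ± 0.29, adjusted p = 0.0454) and stimulated P(rGO) (1.22 ± 0.28, adjusted p = 0.0475). On stimulated ITO it was at 1.10 ± 0.28 (edgeR adjusted p = 0.0656). With each of the 16 libraries left out in turn the call was kept in 14 cases on unstimulated P(rGO), 9 on unstimulated ITO, 7 on stimulated PEDOT:PSS, 5 on unstimulated PEDOT:PSS and 4 on stimulated P(rGO). Without replicate 1 of the plates, the lower one for JUNB, it was lost on all of these, with log2 fold changes of 0.74 to 1.12.

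JUND, the family member that is present at rest, differed least between group means, 1.97-fold from the highest group to the lowest. JUND had 564 and 322 CPM on stimulated P(rGO), 403 and 341 CPM on unstimulated P(rGO), 405 and 342.5 CPM on stimulated PEDOT:PSS, 332 and 334 CPM on unstimulated PEDOT:PSS, 351 and 299.6 CPM on stimulated ITO and 299.7 and 374 CPM on unstimulated ITO. It had 192 and 259 CPM on differentiated plates, and 178.5 and 473 CPM in untreated cells. All 12 film libraries were above both differentiated plate libraries but only 1 was above both untreated ones. The mean of the films against plates was 0.68 ± 0.28 on the log2 scale (edgeR adjusted p = 0.158), and JUND was called in no comparison of this fit. Without the low-count filter JUND was called higher than plates on all 6 films (edgeR adjusted p of 4.09e-07 to 0.0403). That setting also called JUND lower in differentiated against untreated cells (-0.52, edgeR adjusted p = 0.0124). Against plates it called 1211 of all genes on stimulated P(rGO) and 1051 on stimulated ITO, beside 303 and 394 with the filter. Without the untreated libraries JUND was called for the mean of the films (0.70, edgeR adjusted p = 0.0224) and on stimulated P(rGO) (0.99, edgeR adjusted p = 0.0279). In a fit of only the groups compared it was called on unstimulated P(rGO) against plates (0.72, edgeR adjusted p = 0.0486). Leaving out either untreated library also brought a call for the mean of the films (edgeR adjusted p = 0.0246 without replicate 1 and 0.0252 without replicate 2).

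For 5 of the 7 members all 12 film libraries were above both differentiated plate libraries, an order that 9.24% of all genes tested showed. Calls of higher expression against plates were made for 2 members on unstimulated P(rGO), where 2.99% of all genes tested were called higher, for 2 on unstimulated PEDOT:PSS (1.02%) and for 4 on unstimulated ITO (2.5%). They were made for 2 members on stimulated P(rGO) (0.835%), 2 on stimulated PEDOT:PSS (0.791%) and 2 on stimulated ITO (1.44%). For the mean of the 6 film groups 4 members were called, FOS, FOSL1, FOSL2 and JUNB, against 4.05% of all genes. Apart from the JUN calls under other settings given above, no member was called lower on a film than on plates, where 1.64% of all genes were on unstimulated P(rGO), 0.454% on unstimulated PEDOT:PSS, 1.73% on unstimulated ITO, 0.841% on stimulated P(rGO), 0.459% on stimulated PEDOT:PSS, 0.741% on stimulated ITO and 3.73% for the mean of the films. The median log2 fold change of the 7 members for the mean of the films was 1.28, beside -0.02 over all genes tested. The 6 film comparisons share the same 2 plate libraries, so they are not separate evidence, and ribosomal protein reads also differed between films and plates, whose part in the result was not tested. Replicate 1 of the plates was the lower one for FOS, FOSL1, JUNB and JUND, and without it the calls for the mean of the films dropped to 1, FOSL2, with FOS at 1.92 (edgeR adjusted p = 0.259), FOSL1 at 1.58 (edgeR adjusted p = 0.357) and JUNB at 0.84 (edgeR adjusted p = 0.14). Without it, 1 member was called on unstimulated P(rGO), 1 on each ITO group and 0 on the other 3 film groups, and only 143 of all genes were called for the mean of the films, against 1406 with it. Without replicate 2 of the plates 3 members were called for the mean of the films, with FOSL1 at 2.38 (edgeR adjusted p = 0.0559).

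**Figure D2:**
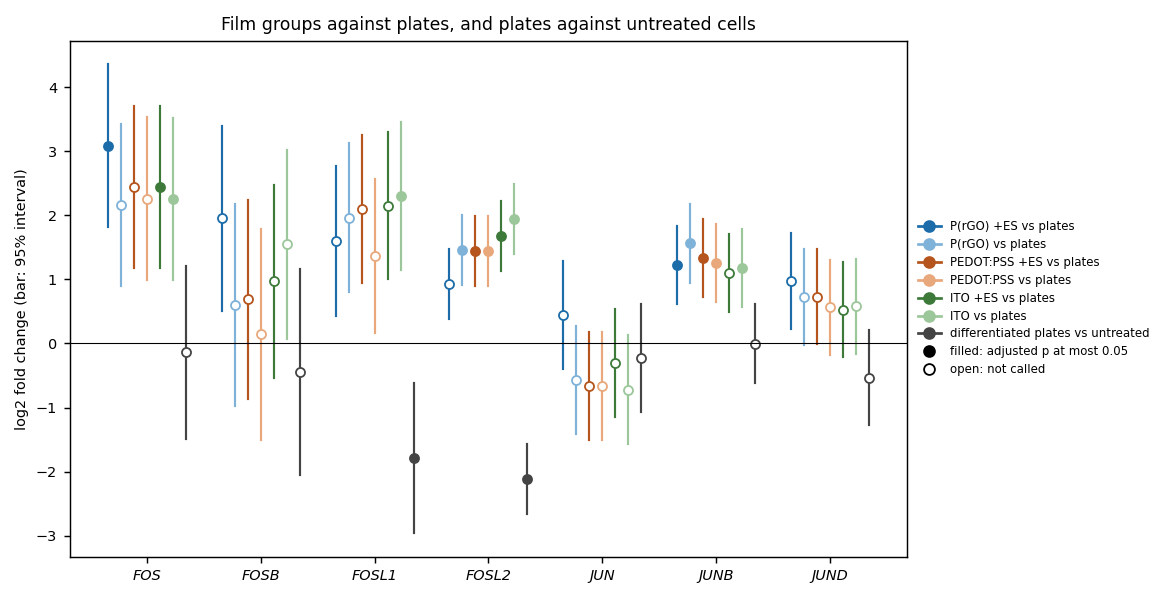
Log2 fold change of each member in the 6 film groups against differentiated plates, and of differentiated plates against untreated cells, with bars for the 95% interval of the edgeR fit over 16 libraries. Filled circles had an adjusted p of at most 0.05. All members except JUN lie above 0 on all 6 films and all 7 lie at or below 0 on plates against untreated cells, where FOSL1 and FOSL2 are the filled circles.

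In differentiated against untreated cells on plates, 2 of the 7 members, FOSL1 and FOSL2, were called lower, where 15.8% of all genes tested were called lower, and none was called higher, where 13.8% of all genes were. The other 5 had log2 fold changes of -0.53 to 0.00, with 95% intervals as wide as -2.05 to 1.16 for FOSB. The mesenchymal and fibroblast marker sums moved in the same comparison, and their part in these falls was not tested. The call of FOSL2 was kept when any of the 16 libraries was left out, while that of FOSL1 was lost without replicate 2 of untreated cells (-1.29, edgeR adjusted p = 0.152) and without either plate library (-1.45, edgeR adjusted p = 0.131, without replicate 1, and -2.25, edgeR adjusted p = 0.0742, without replicate 2).

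Against untreated cells, FOS and JUNB were called higher in all 6 film groups, and no other member was called higher. FOS was at log2 fold changes of 2.02 to 2.95 (edgeR adjusted p of 0.00183 to 0.0168) and JUNB at 1.09 to 1.56 (edgeR adjusted p of 0.00107 to 0.0101). FOSL2 was called lower on stimulated P(rGO) (-1.19 ± 0.25, adjusted p = 0.00215), unstimulated P(rGO) (-0.65 ± 0.24, adjusted p = 0.0493), stimulated PEDOT:PSS (-0.67 ± 0.24, adjusted p = 0.0461) and unstimulated PEDOT:PSS (-0.67 ± 0.24, adjusted p = 0.0483). On ITO FOSL2 was at -0.43 ± 0.24 with stimulation and -0.17 ± 0.24 without (edgeR adjusted p = 0.179 and 0.607). That is 3 called members on each P(rGO) and PEDOT:PSS group and 2 on each ITO group, where 37.2% of all genes were called on stimulated P(rGO), 35.6% on unstimulated P(rGO), 34.4% on stimulated PEDOT:PSS, 31.4% on unstimulated PEDOT:PSS, 32.8% on stimulated ITO and 35% on unstimulated ITO. These shares count calls in either direction, and the member counts lie near them. The share of all genes called higher alone is not given here. All 6 comparisons share the 2 untreated libraries, which stood far apart for FOS, JUN and JUND. Without replicate 1 of untreated cells FOS lost its call on 5 of the 6 films, all but stimulated P(rGO), and was at 1.34 (edgeR adjusted p = 0.124) on unstimulated P(rGO). In the same setting JUNB lost its call on unstimulated ITO (0.95, edgeR adjusted p = 0.0528) and stimulated ITO (0.86, edgeR adjusted p = 0.0738), and FOSL2 was at -0.36 to -0.38 on unstimulated P(rGO) and both PEDOT:PSS groups. With another library left out, each loss of a FOS or JUNB call had an edgeR adjusted p of 0.0549 to 0.0766. The FOSL2 call was kept on stimulated P(rGO) in every case and lost in most cases on the other 3 groups.

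By level, the order of the 8 groups differed among members. For FOS the order of group means was stimulated P(rGO), stimulated ITO, stimulated PEDOT:PSS, unstimulated PEDOT:PSS, unstimulated ITO, unstimulated P(rGO), untreated cells and differentiated plates. Among these neighbours only unstimulated P(rGO) and untreated cells differed past the threshold (log2 difference 2.02, edgeR adjusted p = 0.0168). For JUNB the order was unstimulated P(rGO), stimulated PEDOT:PSS, unstimulated PEDOT:PSS, stimulated P(rGO), unstimulated ITO, stimulated ITO, untreated cells and differentiated plates, and again the step from the lowest film group to untreated cells alone passed (1.09, edgeR adjusted p = 0.0101). For FOSL2 untreated cells came first, followed by unstimulated ITO, stimulated ITO, unstimulated P(rGO), stimulated PEDOT:PSS, unstimulated PEDOT:PSS, stimulated P(rGO) and differentiated plates, and no single step passed. No neighbours in the order differed past the threshold for FOSB, FOSL1, JUN or JUND. Asked whether the 8 group means differed at all, the same model called FOSL2 (edgeR adjusted p = 0.00109), JUNB (0.00547) and FOS (0.0118), against 23.5% of all genes tested. FOSL1 (edgeR adjusted p = 0.0886), JUN (0.139), FOSB (0.221) and JUND (0.526) were not called.

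Stimulation itself was tested within each film. None of the 7 members was called on P(rGO), PEDOT:PSS or ITO, for the mean over the 3 films or for the difference of stimulation between films, and 0% of all genes tested were called by edgeR in these comparisons. At an unadjusted p below 0.05 edgeR counted 986 genes on P(rGO), 126 on PEDOT:PSS, 293 on ITO, 1021 for the mean and 133 for the difference, and DESeq2 called 12, 0, 0, 7 and 0 genes, none of them members. On P(rGO) JUN was at a log2 fold change of 1.01 ± 0.40 (edgeR adjusted p = 0.853), FOSB at 1.36 ± 0.64 (edgeR adjusted p = 0.914) and FOS at 0.93 ± 0.53 (edgeR adjusted p = 0.96), while FOSL2 was at -0.53 ± 0.25 (edgeR adjusted p = 0.902). These values depend on replicate 1 of stimulated P(rGO), the library with most reads in no gene, whose part in the result was not tested. In that library FOS was 1.64, JUN 1.47, FOSB 1.28, FOSL1 1.08, JUND 0.81, JUNB 0.65 and FOSL2 0.31 above replicate 2 on the log2 scale, beside a median gap of 0.27 over all genes. Without it, stimulation on P(rGO) left JUN at 0.10, FOSB at 0.51, FOS at -0.12, FOSL2 and JUNB both at -0.70 and FOSL1 at -1.05, and both FOS and JUNB lost their call on stimulated P(rGO) against plates (FOS 2.04, edgeR adjusted p = 0.297, and JUNB 0.86, edgeR adjusted p = 0.444). On PEDOT:PSS the members' log2 fold changes ran from 0.00 for JUN to 0.74 for FOSL1, and on ITO from -0.58 for FOSB to 0.41 for JUN. For the mean effect of stimulation the 95% interval was -0.22 to 1.09 for FOS, -0.01 to 0.96 for JUN, -0.46 to 0.23 for JUNB and -0.56 to 0.04 for FOSL2 on the log2 scale. A missed threshold does not show that stimulation left these genes unchanged.

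**Figure D3:**
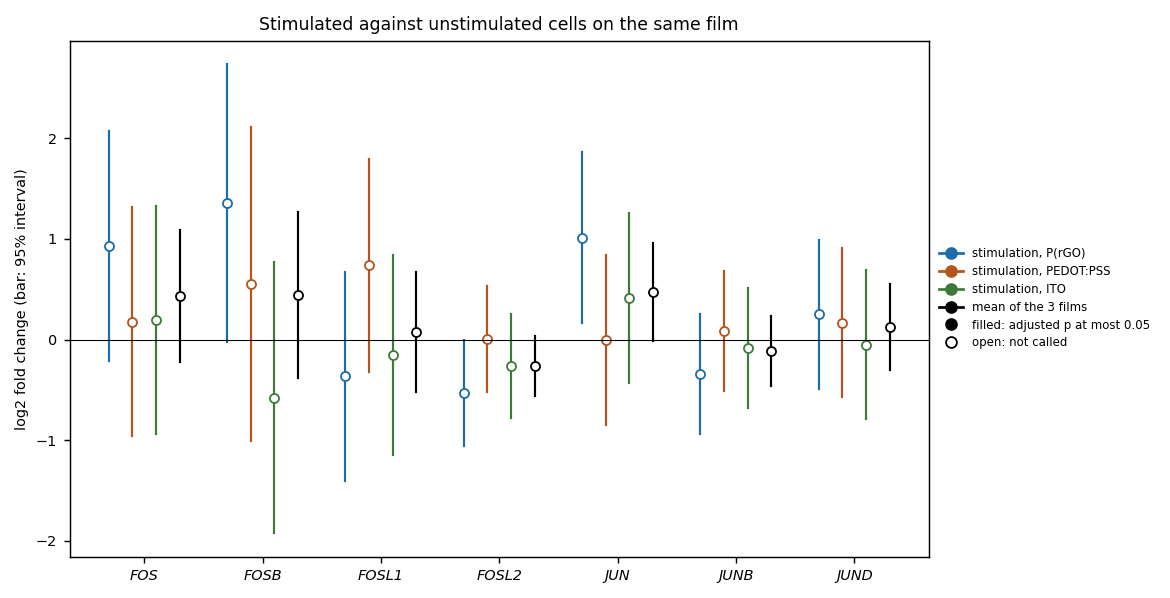
Log2 fold change of each member with stimulation against the same film without it, on P(rGO), PEDOT:PSS and ITO and as the mean of the 3 films, with bars for the 95% interval of the edgeR fit. No circle is filled, as no adjusted p reached 0.05, and the P(rGO) values of FOS, FOSB and JUN are the highest.

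The films were also set against each other. Of the 7 members 0 were called between any 2 unstimulated or any 2 stimulated films, and edgeR called 0% of all genes in these 6 comparisons. At an unadjusted p below 0.05 it counted 243 genes for unstimulated PEDOT:PSS against P(rGO), 299 for unstimulated ITO against P(rGO) and 283 for unstimulated PEDOT:PSS against ITO, and 589, 636 and 237 for the same pairs stimulated. DESeq2 called 0, 0 and 2 genes for the unstimulated pairs and 4, 9 and 0 for the stimulated pairs, none of them members. Of the members, JUN on stimulated PEDOT:PSS against stimulated P(rGO) (-1.11 ± 0.40, edgeR adjusted p = 0.999) and FOSL2 on stimulated ITO against stimulated P(rGO) (0.75 ± 0.24, edgeR adjusted p = 0.955) had an unadjusted p below 0.05. The low FOSL2 level on stimulated P(rGO) was shared by both libraries, while the JUN value again follows replicate 1 of that group.

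The balance between JUNB and JUN was looked at after their values were seen and is given without a test. JUNB had 0.79 to 2.70 reads per JUN read on films, with a median of 2.09, against 0.327 and 0.824 on differentiated plates and 0.66 and 0.397 in untreated cells. By reads, not scaled for gene length, JUNB outnumbered JUN in 11 of 12 film libraries, in 0 of 2 plate libraries and in 0 of 2 untreated libraries. Which gene leads depends on the length used. Per kilobase of exon JUNB was above JUN also in replicate 1 of stimulated P(rGO) (15.6% against 10.1% of the family). The same held in replicate 2 of the plates (16.4% against 10.2%) and replicate 1 of untreated cells (14.2% against 11.1%). Per kilobase of coding sequence JUNB was below JUN in these libraries. The 1 film library below 1 JUNB read per JUN read was replicate 1 of stimulated P(rGO), at 0.79, which still lay within the plate range, and replicate 2 was at 1.39.

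**Figure D4:**
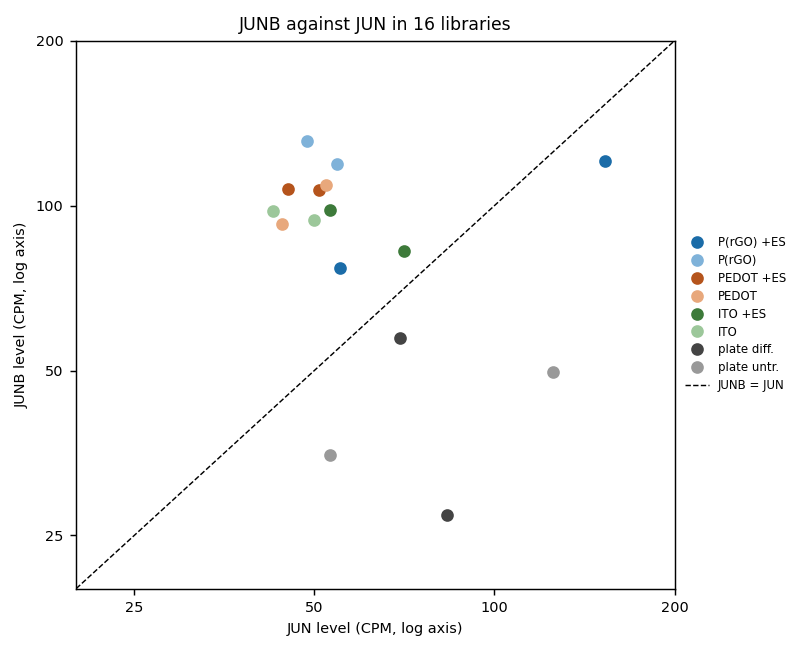
JUNB level against JUN level in CPM (both axes log) in 16 libraries, coloured by group, with a dashed line where both are equal. CPM are not scaled for gene length. Of the 12 film libraries 11 lie above the line, and replicate 1 of stimulated P(rGO) and the 4 plate libraries lie below it.

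The members differed in how closely replicates ran. The biological coefficient of variation was 39.2% for FOSB, 38.0% for FOS, 31.1% for FOSL1, 27.3% for JUN, 24.2% for JUND, 19.95% for JUNB and 17.2% for FOSL2, beside a median of 17.1% over all genes. FOS differed by 1.31 on the log2 scale between the 2 plate libraries and by 1.88 between the 2 untreated ones, a wider gap than 96.9% and 95.6% of all genes. On unstimulated P(rGO), unstimulated PEDOT:PSS and stimulated PEDOT:PSS its replicates lay within 0.07. As a description, FOS and JUNB followed each other over the 16 libraries (Pearson r of log2 CPM 0.91), but within the 12 film libraries r was 0.20. Within films FOS ran with JUN (r = 0.89), which fell to 0.47 in the 11 film libraries other than replicate 1 of stimulated P(rGO), while over all 16 libraries r was -0.04. All these points share the groups and the scaling of their libraries.

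The genes whose log2 CPM was most like that of a member over the 16 libraries, among 11426 with at least 5 CPM in a group, are given as a description. For FOS they were PHF24 (r = 0.974), NAB2 (0.969), which encodes a corepressor of EGR proteins, and VGF (0.963), a neurotrophin-induced neuropeptide precursor, with r of 0.883, 0.812 and 0.662 within the 12 film libraries. For JUNB they were KLC1 (0.965), a kinesin light chain, EGR3 (0.957) and CXXC5 (0.952), with 0.64, 0.718 and 0.849 within films. For FOSL2 they were POPDC2 (0.953), SMAD3 (0.939), a TGF-beta signal transducer, and the integrin gene ITGA4 (0.916). For JUN they were TIMM44 (0.924), ING5 (0.922) and ACD (0.917), and for JUND DOCK6 (0.957), PRKD2 (0.947) and IGSF8 (0.943). For FOSL1 they were NR1H2 (0.91), ZBTB7B (0.898) and ELMO1 (0.895), and for FOSB RAB24 (0.815), FURIN (0.815) and ATG2A (0.799).

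Genes that act with the family were taken from 5 lists. Of 27 partners with a basic leucine zipper (ATF, BATF, MAF and CREB factors and relatives) 22 were tested, and the only call on a single film against plates was MAFG, a small MAF protein, which rose on stimulated P(rGO) (0.87 ± 0.18, adjusted p = 0.0299). MAFG had 311 and 216 CPM there and 123 and 164.5 CPM on plates. In differentiated against untreated cells, where 13.8% of all genes rose and 15.8% fell, 5 partners rose, among them BACH2, a repressor that pairs with small MAF proteins (1.18 ± 0.23, adjusted p = 0.00254), and ATF5 (1.15 ± 0.24, adjusted p = 0.00371), and 1 fell, ATF6, a sensor of endoplasmic reticulum stress (-0.55 ± 0.13, adjusted p = 0.00841). The median of the partners was 0.24 for the mean of the films, beside -0.02 over all genes.

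Of 26 upstream kinases and factors 25 were tested. In differentiated against untreated cells 3 rose and 7 fell, where 13.8% of all genes were called higher and 15.8% lower. The count of rises was near the share called higher. CAMK4, a calcium-dependent kinase that acts on CREB, had 127 and 126 CPM on differentiated plates against 36.5 and 58.8 CPM in untreated cells (1.41 ± 0.23, adjusted p = 0.000862). MAPK10, the neuronal JNK, rose (0.70 ± 0.14, adjusted p = 0.00318) and MAP2K2, the kinase MEK2, fell (-0.64 ± 0.15, adjusted p = 0.00798). ELK3, a partner of serum response factor, fell in differentiated cells (-0.76 ± 0.22, adjusted p = 0.0185) and was higher on unstimulated P(rGO) (0.97 ± 0.22, adjusted p = 0.0213) and unstimulated ITO (0.98 ± 0.22, adjusted p = 0.0211) than on plates. ELK3 had 73.1 and 76.6 CPM on unstimulated P(rGO), 65.8 and 84.9 CPM on unstimulated ITO, 32.5 and 43.9 CPM on plates and 50.8 and 78.4 CPM in untreated cells. Apart from ELK3 the list gave 1 more call on a single film, STAT3 on unstimulated P(rGO) (0.68).

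Of 10 genes that control turnover of FOS and JUN proteins or messages all were tested. In differentiated against untreated cells 1 rose and 2 fell, near the 13.8% of all genes called higher and 15.8% called lower. On unstimulated P(rGO) against plates 1 fell, where 1.64% of all genes were called lower. DET1, part of a ubiquitin ligase for JUN, rose in differentiated cells on plates (1.01 ± 0.34, adjusted p = 0.0372) and fell on unstimulated P(rGO) (-1.47 ± 0.35, adjusted p = 0.0292), with 0.916 and 0.868 CPM on that film, 2.77 and 2.20 CPM on plates and 1.12 and 1.33 CPM in untreated cells. ZFP36L2, which destabilises messages with AU-rich elements, fell in differentiated cells (-0.71 ± 0.18, adjusted p = 0.0116), and so did ELAVL1, which stabilises them (-0.33 ± 0.11, adjusted p = 0.034). GSK3B, a kinase that marks JUN for degradation, was not called in any of these comparisons (0.40 ± 0.18, edgeR adjusted p = 0.0978, in differentiated against untreated cells).

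Of 35 textbook targets of AP-1 24 were tested, and against plates 6 rose and 1 fell on unstimulated P(rGO), 3 and 0 on unstimulated PEDOT:PSS, 5 and 1 on unstimulated ITO, 2 and 0 on stimulated P(rGO), 1 and 1 on stimulated PEDOT:PSS and 7 and 1 on stimulated ITO. Of all genes tested, 0.791% to 2.99% were called higher and 0.454% to 1.73% lower in these film comparisons. In differentiated against untreated cells 2 targets rose and 9 fell, where 13.8% of all genes were called higher and 15.8% lower. VIP, a neuropeptide gene, was higher in all 6 film groups, at log2 fold changes of 1.94 to 3.14 (edgeR adjusted p of 0.000914 to 0.0268). VIP had 38.2 to 136 CPM in the 12 film libraries, against 9.23 and 13.9 CPM on plates. GJA1, the connexin 43 gene, had 31 reads on unstimulated P(rGO), against a single read over both plate libraries, a 34.3-fold ratio with a 95% counting interval of 5.72 to 1400. It had 21 reads on unstimulated PEDOT:PSS, 28 on unstimulated ITO, 14 on stimulated PEDOT:PSS and 37 on stimulated ITO. On stimulated P(rGO) GJA1 had 4 reads, 4.05-fold with an interval of 0.401 to 200 that covers no change. CCL2, a chemokine gene, varied among films and had 0 reads on plates. With plates set to a floor of 3 reads over the group, it was at least 54.6-fold higher on unstimulated ITO (145 reads), 42.7-fold on stimulated ITO (142 reads), 12.2-fold on stimulated PEDOT:PSS (35 reads) and 3.71-fold on stimulated P(rGO) (11 reads). It had 1 read on unstimulated P(rGO) and 3 on unstimulated PEDOT:PSS, at or under the floor, and 182 reads in untreated cells. BCL2L11, the pro-apoptotic gene of BIM, fell on unstimulated ITO (-0.82 ± 0.16, adjusted p = 0.0125) and on 3 other film groups. The median of the 24 targets for the mean of the films was 0.54, beside -0.02 over all genes, and -0.71 in differentiated against untreated cells, beside -0.01.

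Of 37 other immediate early genes 29 were tested, and 8 to 12 of them rose in each film group against plates, with 0 to 2 falling. Over all genes tested, 0.791% to 2.99% were called higher in these comparisons and 0.454% to 1.73% lower. EGR3, SGK1, DUSP5 and INHBA rose in all 6 film groups. EGR3, a zinc finger factor, had 2.59 to 6.71 CPM on films, against 0.0543 and 0.400 CPM on plates (mean of the films 4.07 ± 0.48, adjusted p = 0.00026). SGK1, a serum and glucocorticoid induced kinase, had 39.7 to 162 CPM on films against 6.41 and 15.8 CPM on plates (3.02 ± 0.31, adjusted p = 7.68e-05). DUSP5, a phosphatase of ERK, had 15.2 to 37.5 CPM on films against 3.64 and 5.14 CPM on plates (2.43 ± 0.29, adjusted p = 0.000298), and INHBA, the activin A subunit, 28.5 to 132 CPM on films against 6.73 and 14.03 CPM on plates (2.51 ± 0.36, adjusted p = 0.000939). The median of the 29 genes was 0.48 for the mean of the films, beside -0.02 over all genes, and the lists and the 7 members were chosen with earlier results of these data known.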

How the data were processed

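Per the labels' protocols, polyadenylated RNA was selected and a directional library kit used. The deposited values are counts of reads per gene, raw and with 1 column per library per the file headers. The submitters' processing notes name STAR and HTSeq without versions and list hg38 and GRCh38.p13 as builds. How strand was treated was not given in the sources used here. Reads of overlapping antisense genes may therefore be mixed. The 5 summary rows were left out of library sizes and tests.

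All further values were derived in R 4.3.3. edgeR 4.0.16 kept 18081 genes with its expression filter (minimum count 10) over 8 groups, scaled libraries by the trimmed mean of M values and fitted 1 mean per group over all 16 libraries (robust quasi-likelihood, 8 residual degrees of freedom). Genes were called at a Benjamini-Hochberg adjusted p over all genes of at most 0.05. Standard errors are the log2 fold change over the root of F. CPM use the scaled library sizes. Lengths came from GENCODE v29. The fits were tested on simulated data. Changes were planted only in genes with mean counts above those of FOSB and FOSL1, so counts as low as theirs were not covered. Named genes are the 7 members, from each list the up to 4 genes called in most comparisons with plates, and for each member the 3 genes of highest correlation. Genes named beyond this rule were chosen after their values were seen. A gene that the rule names is not reported here. Members and lists were chosen with earlier results of these data known. Intervals and floors cover counting error only. Precision was limited by 2 libraries per group, with a median standard error of 0.254 to 0.258 between 2 groups. Alternatives were relative log expression scaling, no filter, a replicate block, DESeq2 1.42.0, only the groups compared, no untreated libraries, and leaving out each library.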

Additional observations from a re-analysis of the deposited data

How the results depend on the processing

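The counts of called members varied with the processing, and the cause was not tested. With relative log expression scaling 1 member was called on unstimulated PEDOT:PSS and 1 on stimulated P(rGO) against plates. Without the low-count filter the calls against plates were 5 on unstimulated P(rGO), unstimulated PEDOT:PSS and stimulated ITO and 6 on stimulated P(rGO) and stimulated PEDOT:PSS. That setting also gave 1 call each for stimulation on P(rGO), mean stimulation, and stimulated PEDOT:PSS and ITO against P(rGO), 5 on stimulated P(rGO) against untreated cells and 7 over the 8 groups, and put JUNB at 0.0123 in differentiated against untreated cells. Calls over all genes rose too without the filter, from 0 to 168 for stimulation on P(rGO) and from 0 to 137 for mean stimulation. For stimulated PEDOT:PSS and ITO against P(rGO) they rose from 0 to 137 and 164. Over the 8 groups they rose from 4258 to 6353. Without untreated libraries 4 members were called on unstimulated P(rGO), stimulated P(rGO) and stimulated PEDOT:PSS. Over all genes that setting called 2209 on unstimulated P(rGO) and 898 on stimulated PEDOT:PSS, beside 838 and 226 with all 16 libraries. DESeq2 called 4 on unstimulated P(rGO), stimulated PEDOT:PSS and stimulated ITO and 5 over the 8 groups. Over all genes it called 1408, 623, 686 and 5912 there, beside 838, 226, 394 and 4258 by edgeR. Fits of only the groups compared called 1 in differentiated against untreated cells, 6 on unstimulated P(rGO), 0 on stimulated P(rGO) and 1 on stimulated ITO against plates, and against untreated cells 1 on unstimulated P(rGO), 0 on unstimulated PEDOT:PSS, 1 on unstimulated ITO, 1 on stimulated P(rGO), 1 on stimulated PEDOT:PSS and 0 on stimulated ITO. Over all genes they called 347 in differentiated against untreated cells, beside 5353 with all 16 libraries. On stimulated P(rGO) and stimulated ITO against plates they called 122 and 211 of all genes, beside 303 and 394. In film groups against untreated cells they called 705 to 1580, beside 5673 to 6723.

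The labels number replicates 1 and 2 in every group, and the columns carry a prefix that goes with the number, with no stated meaning. Deviations of same-numbered libraries correlated at -0.19 to 0.29 over 28 pairs of groups, above 0.1 in 16. Among the films all 15 pairs were positive and 13 above 0.1, a hint of pairing there that pairs with plates or untreated cells do not share throughout. With a replicate block 1 member was called on stimulated ITO against plates, and FOS missed the threshold on unstimulated ITO (edgeR adjusted p = 0.0612) and stimulated ITO (edgeR adjusted p = 0.0626).

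Leaving out 1 library at a time, where a lone library is taken to vary like the other groups, gave 1 to 3 calls in differentiated against untreated cells. Against plates it gave 0 to 4 on unstimulated P(rGO), 0 to 3 on unstimulated PEDOT:PSS, 1 to 4 on unstimulated ITO, 0 to 4 on stimulated P(rGO), 0 to 4 on stimulated PEDOT:PSS, 1 to 3 on stimulated ITO and 1 to 5 for the mean of the films. Against untreated cells it gave 1 to 4 on unstimulated P(rGO) and unstimulated PEDOT:PSS, 1 to 3 on unstimulated ITO and 0 to 3 on stimulated ITO. Signs changed for values not called with all libraries. In differentiated against untreated cells these were FOS (-1.001 to 1.17), FOSB (-0.79 to 0.0099), JUN (-0.72 to 0.53), JUNB (-0.65 to 0.44) and JUND (-1.07 to 0.34), whose lower end, without replicate 1 of untreated cells, was called (edgeR adjusted p = 0.00684). Against plates they were FOSB on unstimulated P(rGO) (-0.0391 to 1.03) and PEDOT:PSS (-1.09 to 0.75) and JUN on stimulated P(rGO) (-0.47 to 1.00). For stimulation on P(rGO) they were FOS (-0.12 to 1.53), FOSL1 (-1.05 to 0.0927) and JUND (-0.21 to 0.60), and for mean stimulation FOSL1 (-0.16 to 0.32) and JUND (-0.0309 to 0.24). FOSL2 was called on both ITO groups, for the mean of the films and in differentiated against untreated cells under every alternative run. No fit without untreated libraries was possible for comparisons with untreated cells. FOSB and FOSL1 had 8 to 17 reads per plate library and replicate variation above the median gene, and the part of depth in their missed calls was not tested.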
